A study of Homo sapiens with 8 samples.

Results

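The 10 genes described here are markers and transcription factors of the epithelial-mesenchymal transition: the epithelial genes CDH1 and EPCAM, the mesenchymal genes CDH2, VIM and FN1, and the transcription factors TWIST1, SNAI1, SNAI2, ZEB1 and ZEB2. They were chosen by name, with earlier results of these data known, and make up 10 of the 27757 loci in the deposited table. Of the 10, 7 reached 1 FPKM (fragments per kilobase of transcript, scaled to the fragments mapped, a level corrected for length and depth) in at least 2 libraries and were tested, while SNAI2, ZEB1 and ZEB2 did not and are given by their levels. The RNA came from OVISE, a cell line established from a clear cell carcinoma of the human ovary, and the study asks how the tyrosine kinase SYK shapes the transcriptome that depends on the EGF receptor.

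The 4 groups, of 2 libraries each, were SYK-KO cells with EGF (SYK-KO EGF), SYK-KO cells without treatment (SYK-KO), SYK-WT cells with EGF (SYK-WT EGF) and SYK-WT cells without treatment (SYK-WT). EGF, the ligand of the EGF receptor, was given at 50 ng/ml for 24 h. SYK had been cut with a Cas9 nickase and a pair of guides in exon 2, followed by puromycin and the isolation of single-cell clones. The labels call the lines isogenic but give neither the number of SYK-KO clones nor whether SYK-WT cells had been cloned, so a difference between the genotypes and a difference between clones cannot be told apart. Nor do they name separate cultures behind the replicates, so each p-value reflects variation among these libraries alone, possibly technical.

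In the epithelial-mesenchymal transition, cells tied together by E-cadherin lose those contacts, reorganise their cytoskeleton around vimentin and lay down fibronectin. The factors of the SNAI, ZEB and TWIST families drive it, SNAI and ZEB proteins mainly by binding E-box sequences in the promoters of epithelial genes such as CDH1 and silencing them. Carcinoma cells often show only some of these changes, and ovarian carcinomas are known to keep mixed epithelial and mesenchymal features.

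The estimated depth was 22800000 to 26800000 fragments per library. Epithelial markers were abundant in all libraries. The 7 together reached 13400 to 14740 FPKM in SYK-KO EGF and 9139 to 9996 in SYK-KO. In SYK-WT EGF they reached 13050 to 13270 and in SYK-WT 7066 to 7994 FPKM. Most of each sum came from KRT8 (2396 to 5889 FPKM), KRT18 (1920 to 5188) and KRT19 (1721 to 2835). EPCAM and CDH1, both among the 10 genes, were counted in it. CDH1 (30.7 to 90.8 FPKM) was lower in SYK-KO than in SYK-WT cells although the sum was higher. The carcinoma marker PAX8 was at 148 to 234 FPKM, and NAPSA was at 0.787 to 1.26 FPKM in SYK-KO cells of both treatments and 4.16 to 5.37 FPKM in SYK-WT cells of both treatments. All 8 fibroblast markers stayed under 1 FPKM in every library, with COL3A1, DCN, LUM and THY1 at 0 throughout and sums of 0.317 to 0.388 FPKM in SYK-KO EGF, 0.305 to 0.317 in SYK-KO, 0.117 to 0.157 in SYK-WT EGF and 0.216 to 0.308 in SYK-WT. All 4 endothelial markers and 5 of 6 haematopoietic markers were under 1 FPKM as well, and the sixth, LAPTM5, was at 5.14 to 6.03 FPKM in SYK-KO EGF, 2.78 to 2.97 in SYK-KO, 5.03 to 5.38 in SYK-WT EGF and 4.37 to 4.52 in SYK-WT. The 4 mesothelial markers summed to 6.46 to 7.43 FPKM in SYK-KO EGF, 8.08 to 9.62 in SYK-KO, 15.4 to 15.9 in SYK-WT EGF and 15.96 to 23.86 in SYK-WT, with MSLN at 0.123 to 0.262 FPKM in SYK-KO cells of both treatments and 5.68 to 8.63 FPKM in SYK-WT cells of both treatments. CALB2 was at 2.96 to 3.62 FPKM in SYK-KO EGF, 0.287 to 0.586 in SYK-KO, 1.81 to 1.98 in SYK-WT EGF and 0.143 to 0.342 in SYK-WT, and UPK3B at 3.07 to 3.12, 7.15 to 8.97, 5.06 to 5.30 and 9.82 to 15.96 FPKM in those groups, while WT1 stayed under 1 FPKM. The part of these markers in the results was not tested. The SYK transcript averaged 3.27 FPKM in SYK-KO and 5.11 FPKM in SYK-WT cells, a difference of -0.52 on the log2 scale (limma adjusted p = 0.00289). The guides nick exon 2 and need not abolish the RNA, so this level is no check of the knockout. In a bulk profile, fewer cells with a transcript and less of it per cell cannot be told apart.

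The largest differences among the 10 genes lay between the genotypes. In untreated SYK-KO cells, VIM was 3.07-fold and TWIST1 3.29-fold the SYK-WT level, CDH1 was 2.13-fold lower, and the mesenchymal gene FN1 was 5.41-fold lower. EPCAM stayed between 465 and 564 FPKM in the 8 libraries. With EGF present the same 4 genes differed in the same directions. EGF itself lowered CDH1 and SNAI1 in SYK-WT cells, and both calls depended on the processing. In SYK-KO cells the EGF change of CDH1 was -0.31 on the log2 scale and did not pass (limma adjusted p = 0.081). The difference between the CDH1 responses of the genotypes did not pass either (limma adjusted p = 0.716).

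**Figure D1:**
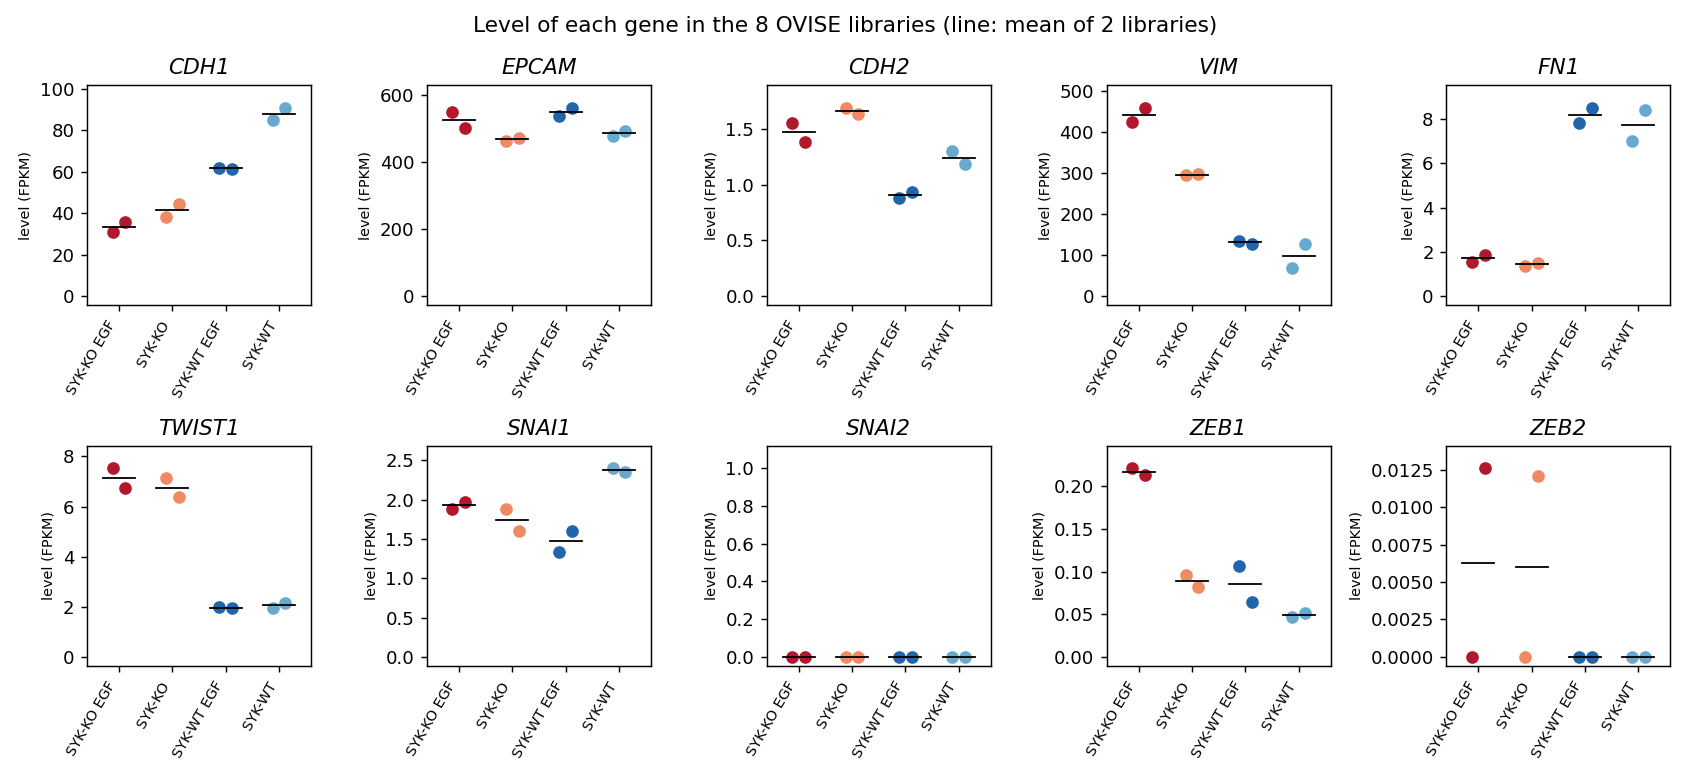
Level of the 10 genes in FPKM (y axis, from 0, a separate scale for each gene) in the 4 groups (x axis), with a point per library and a line at the mean of 2 libraries. VIM and TWIST1 sat higher and CDH1 and FN1 lower in all 4 SYK-KO libraries, EPCAM stayed between 465 and 564 FPKM, and SNAI2 was listed at 0 throughout.

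Changes were tested with limma on log2(FPKM + 1), with p-values adjusted by Benjamini-Hochberg over all 12112 tested loci and a threshold of 0.05. A fold change on that scale understates the change of genes near 1 FPKM, so ratios of mean FPKM are given beside it for some genes. For untreated SYK-KO against SYK-WT cells, 3 of the 7 tested genes rose and 3 fell, where 40.5% of all tested loci passed, 20.3% higher and 20.2% lower. With EGF, 3 rose and 2 fell, against 43.6% of all loci, 21.1% higher and 22.5% lower. The untreated and EGF-treated pairs share no library, but the fit gives them the same spread, estimated from all 8 libraries. A difference between clones could recur in both. The comparisons of EGF with no treatment reuse the same libraries as the comparisons of genotypes, so the 4 results for a gene are not independent.

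**Figure D2:**
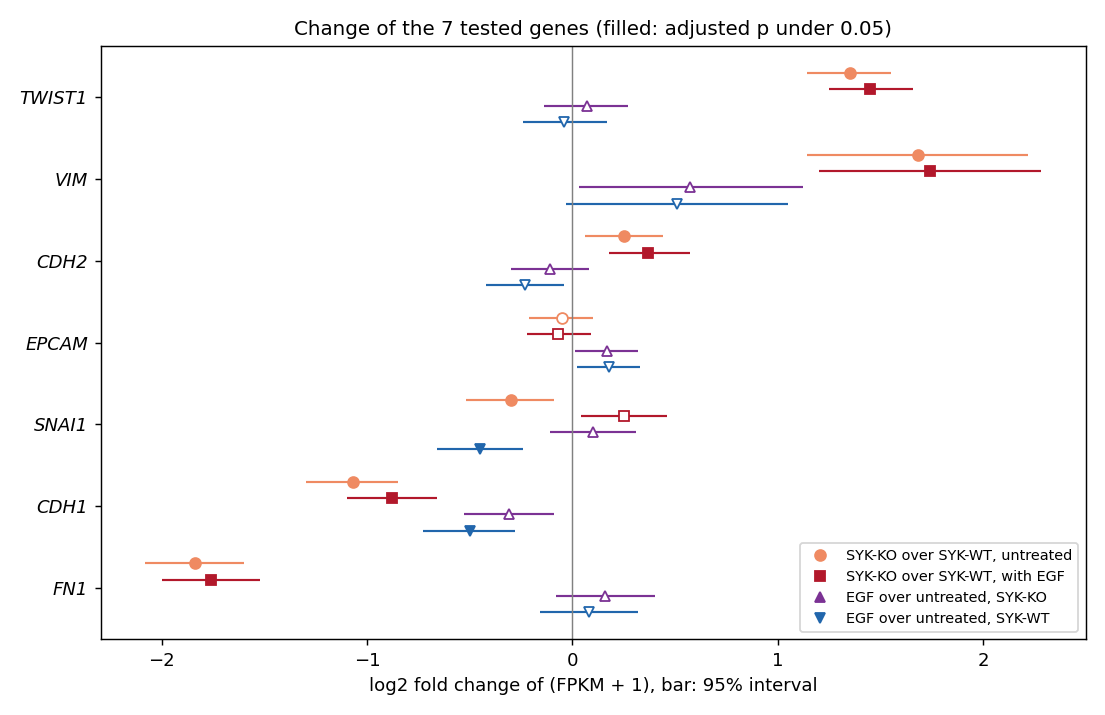
Log2 fold change of (FPKM + 1) of the 7 tested genes (x axis), with 95% intervals as bars, for SYK-KO over SYK-WT with and without EGF and for EGF over no treatment in each genotype. Filled symbols have a limma adjusted p under 0.05. TWIST1 and VIM lie to the right and CDH1 and FN1 to the left for both comparisons of genotypes, while the SNAI1 symbols lie on both sides of 0.

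CDH1 encodes E-cadherin, the adhesion receptor of epithelial adherens junctions, and the table places it on chromosome 16 at 68771193 to 68869445 (hg19), with 4 transcript accessions merged. Its level was 30.7 and 35.6 FPKM in SYK-KO EGF, 38.0 and 44.5 FPKM in SYK-KO, 61.9 and 61.4 FPKM in SYK-WT EGF, and 84.7 and 90.8 FPKM in SYK-WT. No groups overlapped, and the order from low to high was SYK-KO EGF, SYK-KO, SYK-WT EGF and SYK-WT. The means were 41.3 ± 4.55 FPKM in SYK-KO and 87.8 ± 4.33 FPKM in SYK-WT cells (SD, n = 2 each). Untreated, CDH1 fell by 1.07 ± 0.0967 (SE) on the log2 scale in SYK-KO against SYK-WT cells (limma adjusted p = 0.000189), and with EGF by 0.88 (limma adjusted p = 0.000445). Both calls held in all 14 alternatives, with log2 changes between -1.18 and -0.78. Even so, CDH1 remained expressed in SYK-KO cells, at 30.7 to 44.5 FPKM. Its mean over all 8 libraries, which include the higher SYK-WT libraries, was above 88.1% of the tested loci.

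EGF lowered CDH1 in SYK-WT cells by 0.50 on the log2 scale, to 0.702 of the untreated level (limma adjusted p = 0.00862). Without SYK-WT EGF replicate 1 the change was -0.51 and without replicate 2 it was -0.50, but the adjusted p were 0.0566 and 0.0586. In SYK-KO cells the EGF change was -0.31 (95% interval -0.53 to -0.09, limma adjusted p = 0.081), and it passed when SYK-WT replicate 1 or 2 was left out, at adjusted p of 0.039 and 0.0388. The EGF response of SYK-KO minus that of SYK-WT cells was 0.19, with an interval of -0.12 to 0.51 and a limma adjusted p of 0.716. The authors' deposited table gives CDH1 a q-value of 0.000583 in both comparisons of genotypes and 0.00883 for EGF in SYK-WT cells.

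EPCAM, on chromosome 2 at 47596287 to 47614167, encodes an adhesion molecule of epithelial surfaces and was the most abundant of the 10 genes by mean FPKM. It was at 551 and 503 FPKM in SYK-KO EGF, 465 and 473 FPKM in SYK-KO, 538 and 564 FPKM in SYK-WT EGF, and 480 and 494 FPKM in SYK-WT. The SYK-KO EGF and SYK-WT EGF libraries overlapped, and the untreated SYK-KO libraries were just below those of SYK-WT. The log2 difference of SYK-KO from SYK-WT cells was -0.05 untreated (95% interval -0.21 to 0.10) and -0.07 with EGF (-0.22 to 0.09), with limma adjusted p of 0.541 and 0.455. The intervals contain no fall as large as that of CDH1. With EGF the differences from no treatment were 0.17 in SYK-KO cells and 0.18 in SYK-WT cells, with limma adjusted p of 0.155 and 0.0864. EPCAM passed in none of the comparisons under any of the alternatives run.

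The locus of VIM is listed on chromosome 10 at 17256238 to 17279592, the same span as that of VIM-AS1, its antisense transcript. These bounds are therefore not those of VIM alone. VIM encodes vimentin, the intermediate filament protein of mesenchymal cells. Its level was 425 and 460 FPKM in SYK-KO EGF, 295 and 298 FPKM in SYK-KO, 135 and 128 FPKM in SYK-WT EGF, and 67.3 and 126 FPKM in SYK-WT. All 4 SYK-KO libraries were above all 4 SYK-WT libraries, and the SYK-WT pair was the furthest apart. VIM rose by 1.68 ± 0.234 (SE) on the log2 scale in untreated SYK-KO against SYK-WT cells and by 1.74 with EGF, with limma adjusted p of 0.00133 and 0.00106. As ratios of mean FPKM these were 3.07-fold and 3.37-fold. Both calls held in all 14 alternatives, with the untreated change between 1.23 and 2.12, the low end without SYK-WT replicate 1 and the high end without replicate 2 of that group. VIM was also expressed in the SYK-WT cells, at 67.3 to 135 FPKM. Its mean over all 8 libraries, which include the higher SYK-KO libraries, was above 97.3% of the tested loci. VIM-AS1, which overlaps the locus, was at 2.04 to 3.04 FPKM and passed in no comparison. Whether the reads kept strand is not given, so reads of the overlap cannot be assigned.

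The EGF difference of VIM was 0.57 in SYK-KO cells and 0.51 in SYK-WT cells on the log2 scale, with limma adjusted p of 0.161 and 0.146. In SYK-KO cells it stayed between 0.52 and 0.63 in all 14 alternatives, and it passed without SYK-WT replicate 1 (adjusted p = 0.00048), without SYK-WT replicate 2 (0.000464), with only the SYK-KO groups fitted (0.00168) and with library weights (0.00779). In SYK-WT cells the difference moved with the untreated libraries and was 0.96 without replicate 2 of SYK-WT (adjusted p = 0.000105) and 0.06 without replicate 1. The authors' deposited table gives the change in SYK-WT cells a q-value of 0.0280. The response in SYK-KO minus that in SYK-WT cells was 0.07 (limma adjusted p = 0.968). Over 13 alternatives this difference ran from -0.38 to 0.51, so its sign was not stable. The high end was the fit without SYK-WT replicate 1.

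FN1, on chromosome 2 at 216225163 to 216300793, encodes fibronectin, a glycoprotein of the extracellular matrix, and its locus merges 10 accessions, so splice forms were not separated. Its level was 1.55 and 1.87 FPKM in SYK-KO EGF, 1.37 and 1.48 FPKM in SYK-KO, 7.83 and 8.52 FPKM in SYK-WT EGF, and 7.01 and 8.42 FPKM in SYK-WT. All SYK-KO libraries were far below all SYK-WT libraries, the reverse of VIM. FN1 fell by 1.84 ± 0.105 (SE) on the log2 scale untreated and by 1.76 with EGF in SYK-KO against SYK-WT cells, with limma adjusted p of 2.45e-05 and 2.98e-05. Mean FPKM was 5.41-fold lower untreated and 4.78-fold lower with EGF. Both calls held in all 14 alternatives, between -2.35 and -1.68. With EGF, FN1 differed from no treatment by 0.16 in SYK-KO cells and 0.08 in SYK-WT cells, with limma adjusted p of 0.381 and 0.61. The response in SYK-KO minus that in SYK-WT cells was 0.08, with an interval of -0.26 to 0.42.

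CDH2, on chromosome 18 at 25530927 to 25757410, encodes N-cadherin, the cadherin that often replaces E-cadherin in mesenchymal cells. It was low everywhere, at 1.56 and 1.39 FPKM in SYK-KO EGF, 1.69 and 1.63 FPKM in SYK-KO, 0.882 and 0.929 FPKM in SYK-WT EGF, and 1.298 and 1.182 FPKM in SYK-WT. The SYK-KO libraries were above the SYK-WT libraries with the same treatment and no groups overlapped, yet the mean of CDH2 over all libraries was above only 7.5% of the tested loci. CDH2 rose in SYK-KO against SYK-WT cells by 0.37 on the log2 scale with EGF (limma adjusted p = 0.00866), which was 1.62-fold in mean FPKM. Untreated it rose by 0.25 ± 0.0825 (SE), or 1.34-fold, at a limma adjusted p of 0.0438. The call with EGF was lost without SYK-KO EGF replicate 1 (adjusted p = 0.06) or SYK-WT EGF replicate 1 (0.056). The untreated call was lost when any library other than SYK-WT replicate 1 was left out (adjusted p 0.0575 to 0.186), with a pseudocount of 0.1 FPKM (0.0567), with only the compared groups (0.107) and with library weights (0.136). The authors' deposited table gives it a q-value of 0.175 untreated, against 0.0149 with EGF. In these libraries CDH1 transcript was still 24.8-fold the CDH2 level per length in untreated SYK-KO cells, against 70.8-fold in SYK-WT cells.

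The RefSeq promoter table held 5 of the 10 genes. The 250 bases before the start of VIM and of FN1 are shown because these mesenchymal genes moved in opposite directions between the genotypes. They are given in GRCh38.p14, 5′ to 3′ on the strand of the gene, at chr10:17227991-17228240 (plus strand) for VIM and chr2:215436069-215436318 (minus strand) for FN1, with capitals marking TGACGTCA, the full cAMP response element.
VIM: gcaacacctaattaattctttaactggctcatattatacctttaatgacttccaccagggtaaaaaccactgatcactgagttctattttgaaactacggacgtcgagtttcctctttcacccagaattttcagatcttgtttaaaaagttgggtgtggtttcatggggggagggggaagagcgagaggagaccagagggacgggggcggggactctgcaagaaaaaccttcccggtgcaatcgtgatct
FN1: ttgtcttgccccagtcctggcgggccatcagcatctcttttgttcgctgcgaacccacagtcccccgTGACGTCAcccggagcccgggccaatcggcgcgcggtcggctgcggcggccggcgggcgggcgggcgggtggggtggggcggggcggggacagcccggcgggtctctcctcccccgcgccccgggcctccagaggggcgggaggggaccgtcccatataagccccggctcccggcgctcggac
The FN1 window held TGACGTCA once, at position -183 from the start, and 1.65% of the 35116 promoters in the table held it in the same window. The motif reads the same on both strands. Neither window held CANNTG, the E-box core that SNAI, ZEB and TWIST proteins bind, which 61.8% of the promoters held, again alike on both strands. The window of CDH2 held neither motif. That of ZEB1 held CATCTG at position -234 and CAGGTG at -57, and that of ZEB2 held CACATG at -180. CAGGTG or its reverse complement CACCTG, a form of CANNTG, was in 17.5% of the promoters. A match describes these letters only and is not a binding site.

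TWIST1, on chromosome 7 at 19155091 to 19157295, encodes a basic helix-loop-helix factor that promotes the mesenchymal state in development and in carcinoma cells. It was at 7.53 and 6.74 FPKM in SYK-KO EGF, 7.14 and 6.37 FPKM in SYK-KO, 1.97 and 1.97 FPKM in SYK-WT EGF, and 1.94 and 2.16 FPKM in SYK-WT. The 2 genotypes formed separate levels, and within each genotype the EGF-treated and untreated libraries overlapped. TWIST1 rose by 1.35 ± 0.0885 (SE) on the log2 scale untreated and by 1.45 with EGF in SYK-KO against SYK-WT cells, with limma adjusted p of 4.64e-05 and 3.28e-05. The ratios of mean FPKM were 3.29 and 3.62. Both calls held in all 14 alternatives, between 1.27 and 1.80. With EGF it differed from no treatment by 0.07 (95% interval -0.14 to 0.27) in SYK-KO cells and by -0.04 (-0.24 to 0.17) in SYK-WT cells, with limma adjusted p of 0.677 and 0.771. TWIST1 was the transcription factor of the 5 with the highest level in SYK-KO cells.

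**Figure D3:**
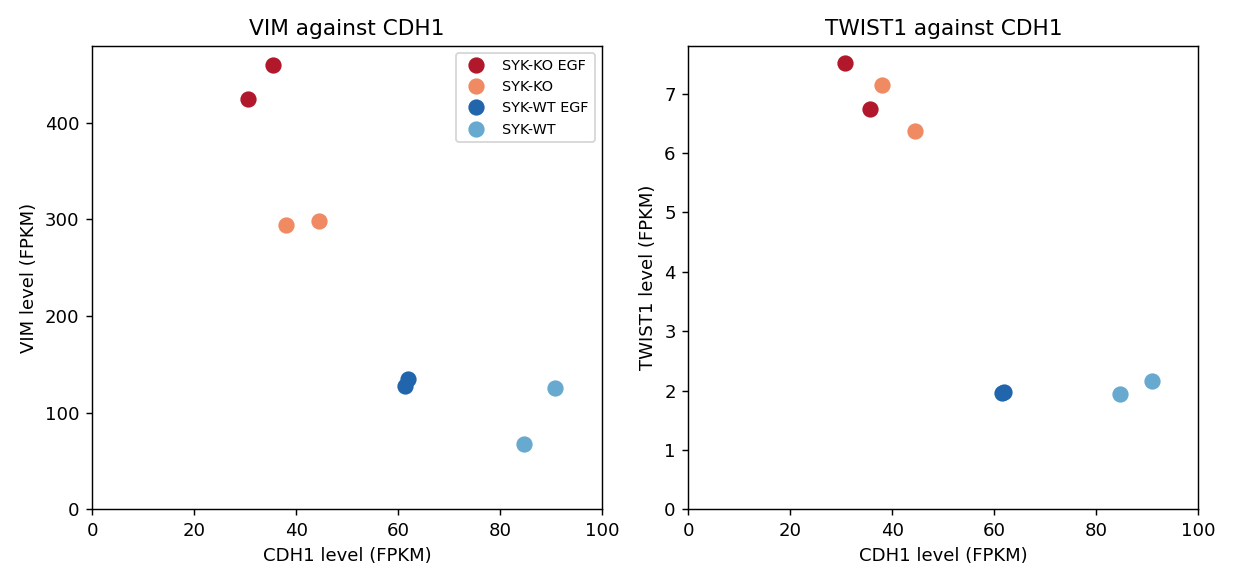
VIM level (left, y axis) and TWIST1 level (right, y axis) against CDH1 level (x axis), all in FPKM from 0, with a point for each of the 8 libraries. SYK-KO libraries lie at CDH1 levels of 30.7 to 44.5 FPKM with VIM at 295 to 460 FPKM, and SYK-WT libraries at 61.4 to 90.8 FPKM of CDH1 with VIM at 67.3 to 135 FPKM. TWIST1 separates the genotypes but not the treatments.

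SNAI1, on chromosome 20 at 48599513 to 48605420, encodes SNAIL, a zinc finger repressor of CDH1. Its level was 1.89 and 1.97 FPKM in SYK-KO EGF, 1.87 and 1.60 FPKM in SYK-KO, 1.34 and 1.60 FPKM in SYK-WT EGF, and 2.40 and 2.35 FPKM in SYK-WT. The untreated SYK-WT libraries were highest and SYK-WT EGF replicate 1 lowest, and SYK-KO replicate 2 was level with SYK-WT EGF replicate 2. EGF lowered SNAI1 in SYK-WT cells by 0.45 ± 0.0912 (SE) on the log2 scale, to 0.619 of the untreated mean FPKM (limma adjusted p = 0.0105). This call was lost without SYK-WT EGF replicate 1 (adjusted p = 0.0816), when only the SYK-WT groups were fitted (0.0512) and with library weights (0.0547). In SYK-KO cells the EGF change was 0.10, with an interval of -0.11 to 0.31 (limma adjusted p = 0.539). CDH1 and SNAI1, its repressor, were both lower with EGF in SYK-WT cells.

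The difference between the EGF responses of SNAI1, SYK-KO minus SYK-WT, was 0.55 ± 0.129 (SE), with an interval of 0.25 to 0.85. Its unadjusted limma p was 0.00278, and its adjusted p of 0.313 did not pass. Between the genotypes SNAI1 fell by 0.30 ± 0.0912 (SE) untreated (limma adjusted p = 0.0306), and with EGF the difference was 0.25 (adjusted p = 0.0586). The untreated call was lost in 6 of 14 alternatives: without SYK-KO replicate 1 (0.0602), SYK-KO replicate 2 (0.184) or SYK-WT replicate 1 (0.0597), with no filter (0.0533), with only the compared groups (0.0777) and with library weights (0.121). The genotype difference with EGF passed in 4: without SYK-WT replicate 1 (0.0443) or replicate 2 (0.0445), with only the compared groups (0.0492) and with weights (0.0375). The authors' deposited table gives q-values of 0.212 untreated, 0.333 with EGF and 0.0378 for EGF in SYK-WT cells.

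For EGF against no treatment, 0 of the 7 tested genes passed in SYK-KO cells, where 11.8% of all tested loci did, 6.67% higher and 5.13% lower, and 3 of them, CDH1, EPCAM and VIM, had an unadjusted limma p under 0.05. In SYK-WT cells 2 fell, CDH1 and SNAI1, and 0 rose, against 26.7% of all loci, 14.7% higher and 12.1% lower. For the difference between the responses 0 of the 7 passed, as against 0.00826% of all loci, which is 1 locus, and SNAI1 alone had an unadjusted p under 0.05. In the authors' deposited table, 4 of the 7 had a q-value under 0.05 for untreated SYK-KO against SYK-WT, where 21.5% of the tested loci did. Those counts were 5 and 24.0% with EGF, and 3 and 15.2% for EGF in SYK-WT cells.

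SNAI2, which encodes the SNAIL relative SLUG, was listed at 0 in all 8 libraries. ZEB2, a zinc finger repressor of CDH1, was listed at 0.0126 FPKM in SYK-KO EGF replicate 2, at 0.0121 FPKM in SYK-KO replicate 2, and at 0 in the other 6 libraries. ZEB1 encodes its close relative, in a locus listed on chromosome 10 at 31605457 to 31818742, the span also listed for its antisense transcript ZEB1-AS1. ZEB1 was above 0 in every library. Its level was 0.221 and 0.214 FPKM in SYK-KO EGF, 0.0960 and 0.0824 FPKM in SYK-KO, 0.107 and 0.0644 FPKM in SYK-WT EGF, and 0.0472 and 0.0515 FPKM in SYK-WT. The SYK-KO EGF libraries were highest and stood apart from the others, SYK-KO and SYK-WT EGF overlapped, and untreated SYK-WT cells were lowest. Mean FPKM with EGF was 2.54-fold higher in SYK-KO than in SYK-WT cells, and within SYK-KO cells 2.44-fold higher with EGF than without.

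In a fit with no filter on low values, over 19671 loci, ZEB1 differed by 0.17 on the log2 scale between SYK-KO and SYK-WT cells with EGF and by 0.16 between EGF and no treatment in SYK-KO cells. The limma adjusted p were 0.00526 and 0.0191, and the untreated genotypes and EGF in SYK-WT cells did not pass (0.152 and 0.236). All these levels were far under 1 FPKM. The antisense transcript ZEB1-AS1 overlaps the locus and was more abundant than ZEB1, at 1.54 and 1.49 FPKM in SYK-KO EGF, 1.60 and 1.15 FPKM in SYK-KO, 1.195 and 1.208 FPKM in SYK-WT EGF, and 0.737 and 0.768 FPKM in SYK-WT. It rose by 0.43 in untreated SYK-KO against SYK-WT cells (limma adjusted p = 0.0125) and by 0.33 with EGF in SYK-WT cells (0.049), where mean ZEB1 FPKM was 1.73-fold higher. Its part in the ZEB1 values was not tested.

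The microRNAs of the miR-200 family are known to hold down ZEB1 and ZEB2, and 2 of them come from the transcript MIR200CHG. Their mature sequences, from RefSeq (GRCh38.p14, chr12:6963742-6963764 and chr12:6964155-6964176, plus strand), are shown because ZEB1 and ZEB2 were both near 0, with the seed, bases 2 to 8, in capitals.
hsa-miR-200c-3p: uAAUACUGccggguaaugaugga
hsa-miR-141-3p: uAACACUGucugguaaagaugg
The seeds differ at 1 position, so the pair belongs to separate seed groups. MIR200CHG was at 1.68 and 2.55 FPKM in SYK-KO EGF, 3.10 and 2.05 FPKM in SYK-KO, 3.09 and 2.80 FPKM in SYK-WT EGF, and 2.89 and 3.68 FPKM in SYK-WT. The ranges of SYK-KO and SYK-WT cells overlapped untreated and were apart with EGF, and the host transcript passed in no comparison. Mature microRNAs were not measured.

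Around these 10 genes, 5 lists of related genes were described by their counts and medians. Unless stated, every call given below for a single listed gene held in all 14 alternatives, which are all forms of the limma fit. The authors' deposited q-values did not pass for GRHL3 between the untreated genotypes (0.0534) or SMAD3 between the genotypes with EGF (0.0884). Nor did that of TAGLN for EGF in SYK-WT cells (0.0907). Of 17 tested epithelial-state regulators and surface genes, 2 rose and 9 fell in untreated SYK-KO against SYK-WT cells, with a median log2 change of -0.27 where the median of all loci was -0.01, and 40.5% of all loci passed, 20.3% higher and 20.2% lower. With EGF, 2 rose and 7 fell, with a median of -0.30 against -0.02 and 43.6% of all loci called, 21.1% higher and 22.5% lower. RAB25, a small GTPase of epithelial membrane recycling, was at 20.3 and 22.7 FPKM in SYK-KO EGF, 20.8 and 19.7 FPKM in SYK-KO, 109 and 104 FPKM in SYK-WT EGF, and 87.0 and 91.2 FPKM in SYK-WT. The genotypes were far apart, and RAB25 fell by 2.08 untreated and 2.26 with EGF (limma adjusted p of 3.55e-06 and 1.88e-06). GRHL3, a grainyhead factor of epithelial differentiation, fell, with log2 changes of -0.99 untreated and -1.41 with EGF and limma adjusted p of 0.000143 and 2.71e-05. OVOL2, a zinc finger factor known to restrain ZEB1, went the other way and rose by 0.73 and 1.23 (limma adjusted p of 0.003 and 0.000315).

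Of 15 tested adherens and desmosomal junction genes, 2 rose and 4 fell both untreated and with EGF, with medians of -0.15 and -0.08 where those of all loci were -0.01 and -0.02. The 6 called of 15 were near the shares of all loci, 40.5% and 43.6%. CTNNB1, which encodes beta-catenin, was at 67.73 and 75.04 FPKM in SYK-KO EGF, 63.2 and 71.1 FPKM in SYK-KO, 106 and 114 FPKM in SYK-WT EGF, and 117 and 120 FPKM in SYK-WT. It fell by 0.81 untreated and 0.62 with EGF in SYK-KO against SYK-WT cells, with limma adjusted p of 0.000332 and 0.00101. AFDN, which encodes afadin and links nectins to actin, fell by 0.51 and 0.48 (limma adjusted p of 0.00429 and 0.00507). The desmosomal plaque gene PKP2 rose by 0.38 untreated (limma adjusted p = 0.00552).

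Of the 14 tested genes of the mesenchymal list, 4 rose and 3 fell untreated, with a median of 0.00, and 4 rose and 5 fell with EGF, with a median of 0.01, against 40.5% and 43.6% of all loci called. TAGLN, which encodes the actin-binding protein transgelin, was at 12.3 and 11.6 FPKM in SYK-KO EGF, 5.10 and 5.14 FPKM in SYK-KO, 2.85 and 2.66 FPKM in SYK-WT EGF, and 1.33 and 0.976 FPKM in SYK-WT. Each group was clear of the others, and TAGLN rose by 1.51 untreated and 1.79 with EGF (limma adjusted p of 3.63e-05 and 1.63e-05). ITGB3, integrin beta-3, rose by 1.16 and 1.90, with limma adjusted p of 0.00464 and 0.000524. S100A4, a calcium-binding protein also called fibroblast-specific protein, was at 93.3 and 101 FPKM in SYK-KO EGF, 72.5 and 77.3 FPKM in SYK-KO, 402 and 422 FPKM in SYK-WT EGF, and 285 and 361 FPKM in SYK-WT. Like FN1 it was lower in all SYK-KO libraries, and it fell, with log2 changes of -2.08 untreated and -2.07 with EGF (limma adjusted p of 1.81e-05 and 1.66e-05). Another 11 genes of the list, the fibrillar collagen genes COL1A1, COL1A2 and COL3A1 among them, did not reach the filter.

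**Figure D4:**
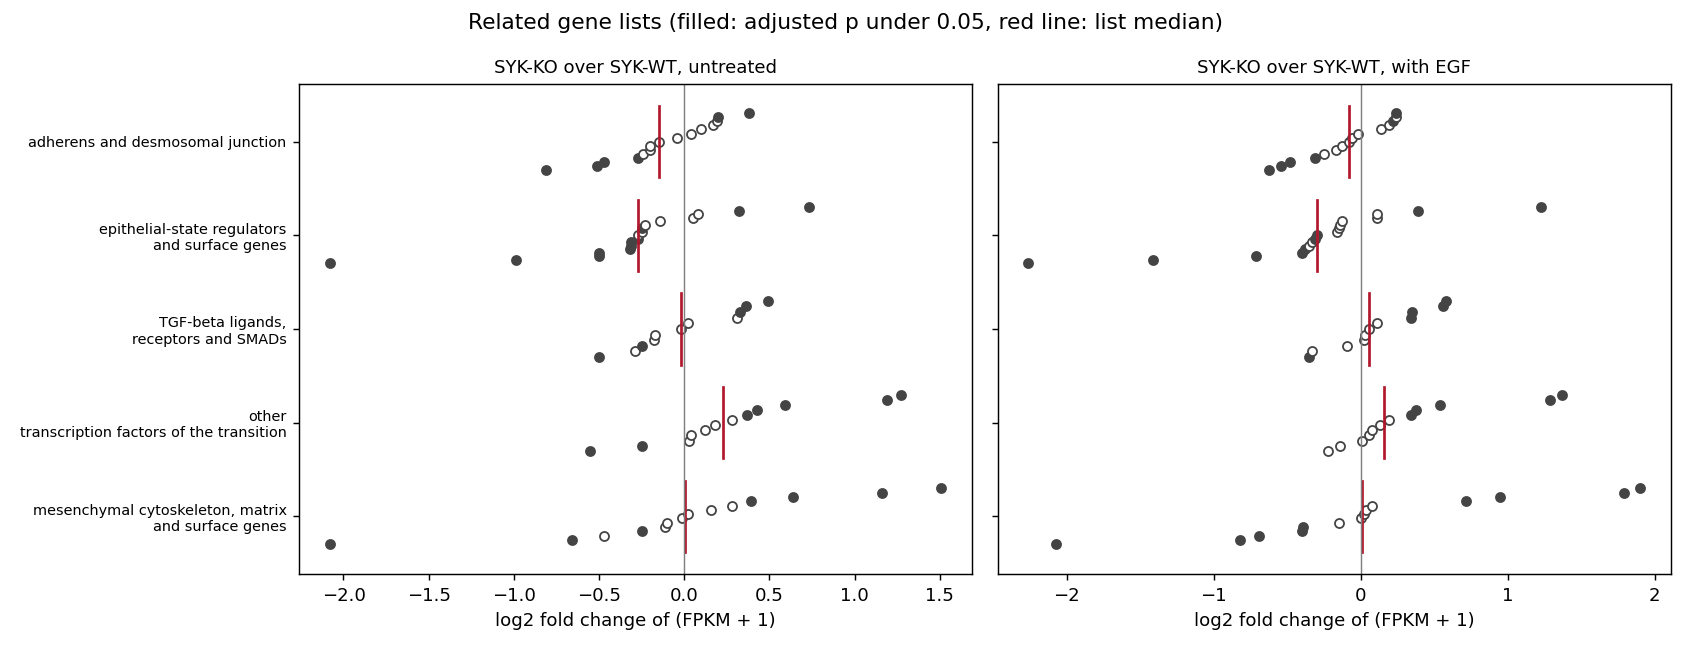
Log2 fold change of (FPKM + 1) in SYK-KO over SYK-WT cells (x axis), untreated (left) and with EGF (right), for every tested gene of 5 lists (rows). Filled points have a limma adjusted p under 0.05 and red lines mark list medians, which run from -0.27 (epithelial-state genes) to 0.23 (other transcription factors) untreated and from -0.30 to 0.16 with EGF.

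Among 12 tested other transcription factors of the transition, 5 rose and 2 fell untreated, with a median of 0.23, and 5 rose and 0 fell with EGF, with a median of 0.16, against 40.5% and 43.6% of all loci called. ID1 and ID3 encode inhibitors that pair with basic helix-loop-helix proteins, the class TWIST1 belongs to, and keep them from DNA. ID1 was at 220 and 197 FPKM in SYK-KO EGF, 166 and 153 FPKM in SYK-KO, 75.4 and 84.6 FPKM in SYK-WT EGF, and 58.5 and 81.7 FPKM in SYK-WT. It rose by 1.19 untreated and 1.37 with EGF, with limma adjusted p of 0.000752 and 0.000381, and ID3 rose by 1.27 and 1.29 (0.000408 and 0.000369). ID2, on the same list, went the other way untreated and fell by 0.55 (limma adjusted p = 0.00104). With EGF it differed by 0.01 and did not pass (limma adjusted p = 0.915). Of 11 tested genes of TGF-beta signalling, the best known inducer of the transition, 3 rose and 2 fell untreated, and 4 rose and 1 fell with EGF, with medians of -0.02 and 0.06. The 5 called of 11 were near those same shares of all loci. SMAD3, a factor that carries the signal to the nucleus, fell by 0.50 and 0.35 (limma adjusted p of 0.0013 and 0.00586), and SKIL, which restrains SMAD proteins, rose by 0.49 and 0.56 (0.00299 and 0.00161). The ligand genes TGFB1, TGFB2 and TGFB3 did not reach the filter.

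EGF moved some of the listed genes in both genotypes. In the mesenchymal list 5 rose and 1 fell with EGF in SYK-KO cells, with a median of 0.25, and 8 rose and 3 fell in SYK-WT cells, with a median of 0.31, where the medians of all loci were 0.00 and 0.01 and 11.8% and 26.7% of all loci passed. ITGA5, which encodes the integrin alpha-5 subunit of a fibronectin receptor, was at 28.2 and 29.6 FPKM in SYK-KO EGF against 10.5 and 9.73 FPKM in SYK-KO, and at 26.1 and 28.3 FPKM in SYK-WT EGF against 8.87 and 8.97 FPKM in SYK-WT. It rose with EGF by 1.43 in SYK-KO cells and 1.51 in SYK-WT cells, with limma adjusted p of 9.33e-05 and 2.76e-05. TAGLN rose with EGF by 1.08 in SYK-KO cells and 0.81 in SYK-WT cells (limma adjusted p of 0.000621 and 0.00105), and CD44, a receptor for hyaluronan, by 0.74 and 1.17 (0.00113 and 0.000104). As ratios of mean FPKM, the rise of TAGLN was 2.34-fold in SYK-KO cells and 2.39-fold in SYK-WT cells. Among the transcription factors, ETS1 rose by 0.85 in SYK-KO cells and 1.38 in SYK-WT cells and SOX9 by 1.52 and 1.77, all with limma adjusted p of at most 0.000676. Mean FPKM of SOX9 rose 4.32-fold in SYK-KO cells and 6.34-fold in SYK-WT cells, from 1.31 and 0.802 FPKM. CD24, a surface glycoprotein of epithelial cells, fell by 1.02 and 1.05 (limma adjusted p of 0.000388 and 0.000155), and the tight junction gene MARVELD3 by 0.68 and 0.63 (0.00196 and 0.00129). In the remaining lists, 1 junction gene rose in SYK-KO cells and 2 rose and 1 fell in SYK-WT cells, 1 epithelial-state gene rose and 3 fell in SYK-KO cells and 4 rose and 4 fell in SYK-WT cells, 3 TGF-beta signalling genes fell in SYK-KO cells and 4 in SYK-WT cells, and 3 transcription factors rose in each genotype while 1 fell in SYK-KO cells and 4 fell in SYK-WT cells. These counts, too, stand against 11.8% and 26.7% of all loci, and they moved with the processing, the TGF-beta calls in SYK-KO cells from 3 to as few as 0. No gene of the 5 lists passed in the reported limma fit for the difference between the responses. Under some alternatives, calls appeared in the epithelial-state, transcription factor and mesenchymal lists.

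For each tested gene, the loci whose log2(FPKM + 1) followed it most closely over the 8 libraries were sought among 7789 loci of a single symbol with a mean of at least 5 FPKM. The libraries form 4 groups of 2, so the coefficients mostly compare group levels and are given as a description. CDH1 was followed by GTF3C2, PURB and STX7, with Pearson r of 0.9964, 0.9957 and 0.9957, and STX7 averaged 17.9 FPKM in SYK-KO EGF, 21.8 in SYK-KO, 32.5 in SYK-WT EGF and 41.9 in SYK-WT. FN1 was followed by TNFAIP1 (r = 0.9981), ARHGEF3 and RAB3GAP2, TWIST1 by CENPI (r = 0.9964), UXT and KRTCAP2, and VIM by TTC7B (r = 0.9956), MAP3K10 and CYP2S1. The closest to CDH2 was HOXA3 (r = 0.9922), before DLGAP5 and NCAPG2. EPCAM and SNAI1 had the weakest matches, ACAP2 (r = 0.9582) and WNT7B (r = 0.9731), followed by SRSF4 and ARF1 for EPCAM and SENP6 and ARHGAP11A for SNAI1.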

How the data were processed

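Total RNA of OVISE cells was sequenced as paired-end Illumina libraries, and groups and replicate numbers were read from the sample titles. The authors made the deposited FPKM values per locus and library with the Cufflinks suite; TopHat, Cufflinks, Cuffdiff 2.2.1.3 and the build hg19 are named in the submitters' processing notes. Neither the scaling of libraries nor the strand of reads is given in the sources used here. The q-values and p-values of 3 comparisons are the authors', per the file headers, and only q-values are printed.

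Symbols were found for 27541 of 27757 loci (99.2%) from RefSeq and GENCODE tables. The 12112 loci that reached 1 FPKM in 2 or more libraries entered limma 3.58.1 (trend, R 4.3.3) as log2(FPKM + 1), with 1 mean per group and the spread shared by all 4 groups (4 residual degrees of freedom, prior 3.87). Two-sided p-values were adjusted by Benjamini-Hochberg in each of 5 contrasts, with a threshold of 0.05. The fit was run on simulated data as a check that large shifts were recovered. It was no check of small changes such as those of CDH2 and SNAI1. The design had fixed a count test for counts and this test for FPKM, and the files held FPKM. Depth was estimated from the step that 1 fragment makes in 1198 loci of at most 0.5 FPKM, and assumes scaling by the fragments of the library itself.

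The members and the lists were chosen with earlier results of these data known. Named were all 10 members and SYK, up to 4 genes per list and contrast with the smallest adjusted p, and the 3 loci most like each tested member; not all of these are printed. Alternatives were equalised library medians, a pseudocount of 0.1, no filter, fitting only the groups compared, library quality weights, the replicate number as a block, and leaving out each library. Summaries used pandas 2.3.3 under python 3.11.15, and figures matplotlib 3.10.9.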

Additional observations from a re-analysis of the deposited data

How the results depend on the processing

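Of 483 recomputed values of the 7 tested members, 446 stayed on their side of the threshold in their direction or were uncalled in both fits, 23 lost a call, 14 gained one and 0 called values changed sign. For EGF in SYK-KO cells, 1429 loci passed, but 2646 when only the compared groups were fitted, 3024 with library weights, and 319 to 2984 when each library was left out. The members called there, 0 in the reported fit, were 1 (VIM), 2 (CDH1 and VIM), and 0 to 2 in the same alternatives. For EGF in SYK-WT cells, 3238 loci passed, against 1254 with only the compared groups, 1877 with weights, and 1255 to 5108 with a library left out, and the 2 members called were 1 (CDH1), 1 (CDH1), and 0 to 3. For untreated SYK-KO against SYK-WT cells, 4902 loci passed, 3007 with only the compared groups and 2460 to 5935 with a library left out, with 4 to 5 of the 6 members. With EGF the 5277 loci became 2952 to 6835 with a library left out, and the 5 members 4 to 6. The difference between the responses gave 1 locus, 2 without the filter, 2 with weights, and 0 to 867 with a library left out, the most without SYK-WT replicate 1, and 0 to 1 member (VIM). That difference could not be fitted on fewer groups. The cause of these shifts was not tested.

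Same-numbered libraries deviated together in some pairs of groups and apart in others (correlations over 12112 loci from -0.381 for SYK-KO EGF with SYK-WT EGF to 0.27 for SYK-KO EGF with SYK-WT), so the numbers were not taken to pair the libraries. With the replicate block, 1653 loci passed for EGF in SYK-KO cells, 3624 for EGF in SYK-WT cells, 5261 and 5688 between the genotypes untreated and with EGF, and 1 for the difference of responses. The block added 1 member call, CDH1 for EGF in SYK-KO cells (-0.31, limma adjusted p = 0.0364), and moved no other.

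The counts of the related lists moved as well. Of 17 epithelial-state genes, 11 passed between the untreated genotypes and 5 to 11 under the alternatives, with EGF 9 and 6 to 10. Of 14 mesenchymal genes, 7 passed untreated and 5 to 8 under the alternatives, with EGF 9 in all of them. Untreated, the other ranges were 3 to 9 junction, 2 to 7 TGF-beta and 5 to 8 transcription factor genes, and with EGF 3 to 9, 4 to 6 and 3 to 7. For EGF in SYK-KO cells the ranges were 0 to 2 junction, 2 to 7 epithelial-state, 0 to 3 TGF-beta, 2 to 6 transcription factor and 4 to 10 mesenchymal genes. For EGF in SYK-WT cells they were 1 to 4, 5 to 11, 3 to 5, 3 to 8 and 5 to 13. With 2 libraries a group, the SYK-WT pair was furthest apart (median absolute log2 difference 0.15, against 0.0669 to 0.0828 in the other groups). The calls lost were those of CDH2, SNAI1 and, for EGF in SYK-WT cells, CDH1, while VIM had the largest standard error of the 7.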
